A study of Mus musculus with 20 samples.

Results

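The 6 count rows examined belong to the ERBB receptor and ligand system or lie opposite one of its genes, and were read for other ERBB signalling when Erbb2 is lost. They were Egfr, Nrg4 with its partner Fbxo22, Lrig1 with its partner Slc25a26, and Gm19610, which lies opposite the ligand gene Ereg. These 6 rows, of 46329 in each file, were picked by name with earlier results of these data known, so that their having counts is not a finding. All 6 passed the filter on low counts, which left 7119 rows. Near that limit, the Erbb2 row passed with a mean of 8.40 counts and the Erbb3 row, at 6.35, did not.

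RNA was sequenced from colorectal tumors and from the non-tumor tissue beside them, titled adjacent normal, in C57BL/6J mice of 100 days. All mice were ApcMin/+, a genotype prone to tumors of the intestine, and were homozygous for a floxed Erbb2 allele (Erbb2f/f, from Erbb2tm1Mll). Erbb2-deficient mice also carried Tg(Vil1-cre), a cre recombinase driven by the Villin promoter of intestinal epithelium, and control littermates, labelled WT, had no cre. Cells other than epithelium keep Erbb2 in this model, and the genotypes differ by the cre transgene as well. Each of the 4 groups (control adjacent, control tumor, Erbb2-deficient adjacent, Erbb2-deficient tumor) held 5 libraries, numbered as biological replicates 1 to 5. Whether equal numbers mark 1 mouse is not stated.

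ERBB receptors are cell-surface tyrosine kinases that pair with each other after binding ligands of the EGF and neuregulin families. EGFR binds EGF, TGF-alpha, amphiregulin and epiregulin, ERBB4 binds neuregulins, and ERBB2 has no known soluble ligand and acts as a partner for the others. In the gut these receptors carry growth and repair signals to crypt cells. LRIG1 is a membrane protein that lowers receptor levels and marks crypt stem cells.

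The libraries held 1071737 to 1944309 counts on genes, so that 1 count was worth 0.582 to 0.987 CPM (counts scaled to library size after normalization by trimmed means). Only 2.51% to 3.45% of the reads in a file were on genes. Of the counts on rows matched to the GENCODE M21 annotation, 77.2% fell on the 19.3% of rows whose exons overlap an antisense exon. ND6 lies on the other strand from the remaining mitochondrial protein genes. Its row held 22599 to 199495 counts and the other 12 together 884 to 5698. The library kit keeps strand, the strand setting of the counting is not given in the sources used here, and whether reads were counted on the opposite strand was not tested. A symbol here therefore stands for a row, whose reads may be those of the gene named or of its partner. The Erbb2 row held 1 to 22 counts, with log2 fold changes between genotypes of 0.02 in tumors and 0.60 in adjacent tissue (edgeR adjusted p = 0.994 and 0.927), and cannot check the genotype labels. Control tumor 2 stood apart: its median within-group Spearman correlation was 0.636, against at least 0.820 in the other libraries. The 9 epithelial marker rows (Epcam, Krt8, Krt18, Krt19, Krt20, Cdh1, Vil1, Cldn7 and Lgals4) were all above 0 in every group. Together they stood at 18.2 CPM in control tumor 2 and at 268 to 763 CPM in the other libraries. In control tumor 2 the 6 T cell marker rows summed to 49.9 CPM (0 to 3.97 in the others) and the 4 B cell marker rows to 78.1 CPM (1.9 to 33.3 in the others). The 6 smooth muscle marker rows summed to 980 to 2400 CPM in control and 986 to 1290 CPM in Erbb2-deficient adjacent tissue, and to 156 to 506 and 159 to 241 CPM in tumors. In tissue RNA, fewer cells of a type and less RNA per cell cannot be told apart. The part of muscle content in the tumor differences below was not tested.

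**Figure D1:**
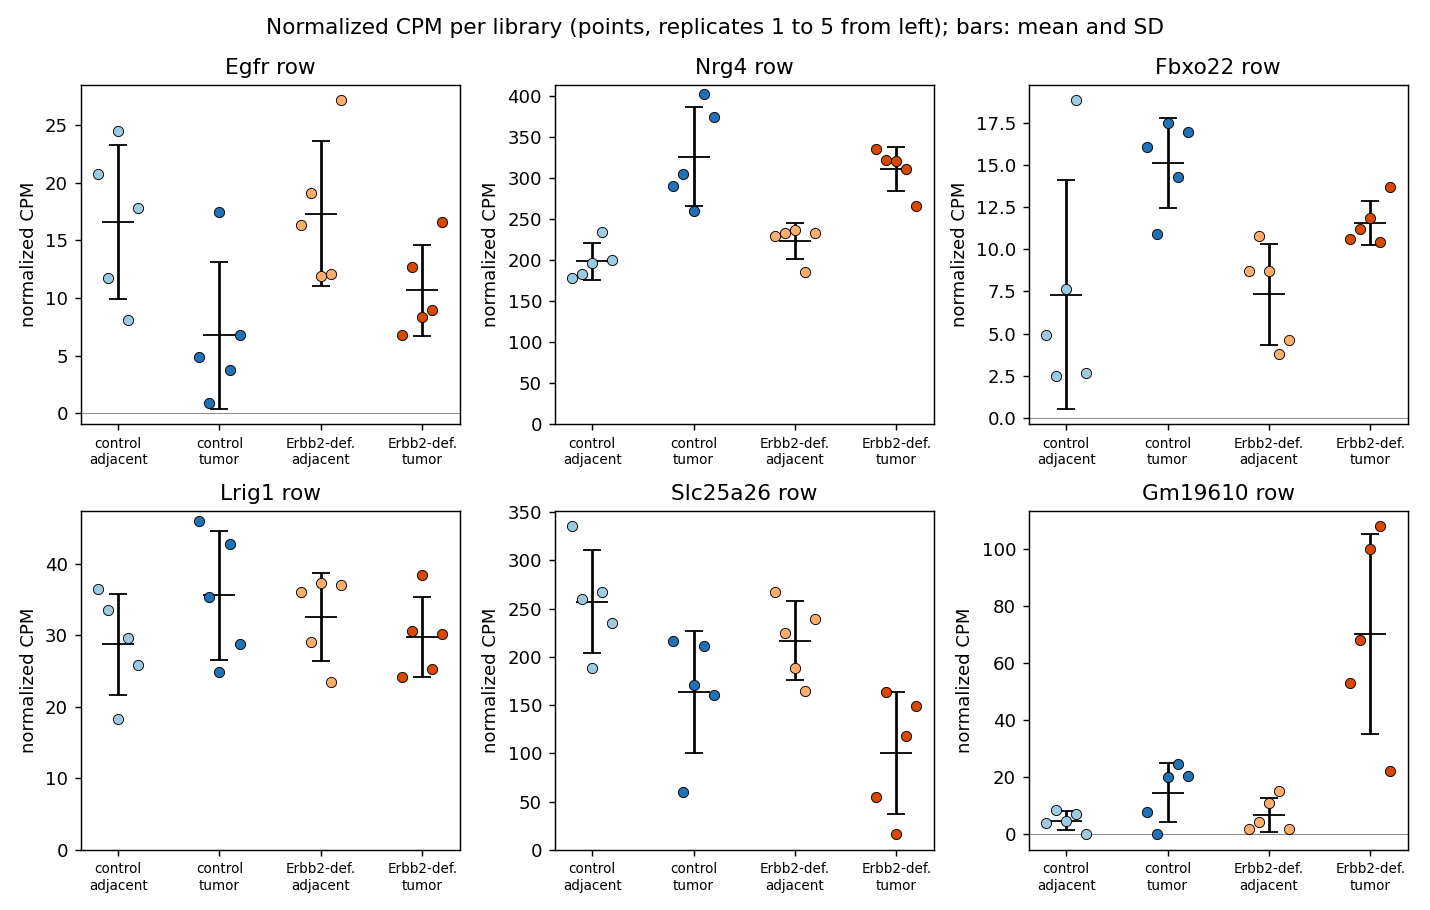
Normalized CPM of the 6 rows in each library (points, replicates 1 to 5 from left to right) by group on the x axis, with the group mean and SD as bars. The Nrg4 row is higher in tumors than in adjacent tissue without overlap in both genotypes, and the Gm19610 row reaches 108 CPM in Erbb2-deficient tumors.

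Egfr encodes the EGF receptor, which can pair with ERBB2. Its row had few counts, 1 to 41 per library. In control adjacent tissue it stood at 20.7, 11.8, 24.5, 8.07 and 17.8 CPM in replicates 1 to 5, and in control tumors at 4.89, 0.908, 17.5, 3.81 and 6.78 CPM. Control tumor 3 lay among the adjacent values, and the groups overlapped. In Erbb2-deficient mice the row stood at 16.3, 19.1, 11.9, 12.1 and 27.1 CPM in adjacent tissue and at 6.80, 12.7, 8.38, 8.93 and 16.6 CPM in tumors. Those groups overlapped too. Ordered by mean, the levels were 17.3 ± 6.26 CPM (SD, n = 5) in Erbb2-deficient adjacent tissue, 16.6 ± 6.65 in control adjacent tissue, 10.7 ± 3.94 in Erbb2-deficient tumors and 6.77 ± 6.35 in control tumors (4.09 without control tumor 3). Each neighbouring pair in that order differed by less than 1 SD of its more variable member.

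The tumor difference of the Egfr row did not pass in edgeR's quasi-likelihood test with Benjamini-Hochberg adjustment over all 7119 rows. In controls the log2 fold change was -1.29 ± 0.49 SE (adjusted p = 0.0642). In Erbb2-deficient mice it was -0.69 ± 0.46 SE (0.271). The control difference passed without control tumor 3 (-1.97, adjusted p = 0.00373), without control adjacent 4 (-1.46, 0.0460), and with DESeq2 (-1.31, 0.0314). It also passed with the replicate number as a block (-1.35, edgeR adjusted p = 0.0481), although the numbers were not taken as pairs. Its adjusted p ran from 0.00373 to 0.163 over the alternatives. In both genotypes the Egfr row was lower in the tumor than in the adjacent tissue of every replicate number. Egfr lies opposite Egfros, an antisense gene within its span whose exons overlap none of Egfr's, and the Egfros row held 0 to 7 counts. Among the tested rows most like Egfr over the 20 libraries were Muc2 (Pearson r of log2 CPM 0.912) and Phgr1 (0.891). Muc2 is the goblet cell mucin. Libraries share tissue and epithelial content, so these correlations are descriptions only. For rows named by such correlations, here and below, partners on the opposite strand were not examined. The Egfr row had 1 count in control tumor 2, where the epithelial rows were also lowest, and the part of epithelial content in the Egfr values was not tested.

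**Figure D2:**
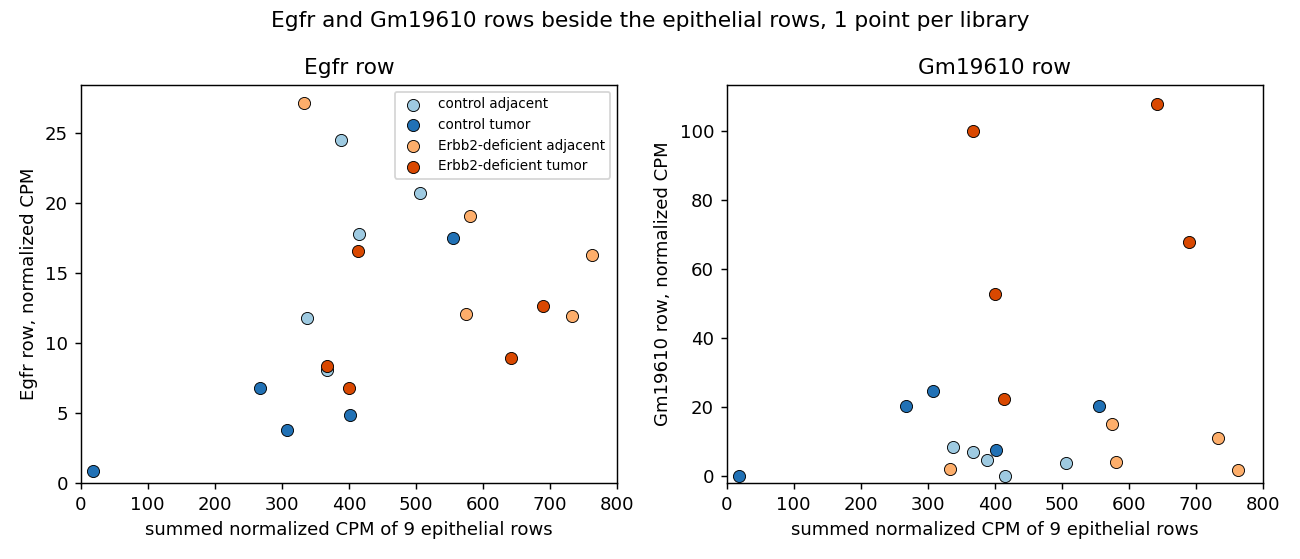
The Egfr row (left) and the Gm19610 row (right) in normalized CPM on the y axis against the summed CPM of 9 epithelial marker rows on the x axis, 1 point per library coloured by group. Control tumor 2 sits alone at 18.2 CPM of epithelial rows, with 0.908 CPM of Egfr and 0 CPM of Gm19610, while Erbb2-deficient tumors with 368 and 642 CPM of epithelial rows hold the highest Gm19610 values.

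Nrg4 encodes neuregulin 4, a ligand of ERBB4, and Fbxo22 encodes an F-box protein of a ubiquitin ligase. In GENCODE M21 the genes run toward each other and share 368 bases of exon on opposite strands, 166 of them coding in Fbxo22 and 0 coding in Nrg4. Another 177 exon bases of Nrg4 face the pseudogene Gm15625. The Nrg4 row was the better filled, with 180 to 459 counts against 3 to 23 for Fbxo22, or 92.6% to 98.7% of the pair's counts in a library. Per kilobase of annotated exon the Nrg4 row averaged 43.5 CPM and the Fbxo22 row 4.32 CPM.

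The 250 bases before a gene's RefSeq start (GRCm38.p6, minus strand) are shown for Nrg4 because its row was the one that passed in both genotypes. They lie at chr9:55283626-55283875, within the span of Nrg4 and outside any GENCODE exon.
Nrg4: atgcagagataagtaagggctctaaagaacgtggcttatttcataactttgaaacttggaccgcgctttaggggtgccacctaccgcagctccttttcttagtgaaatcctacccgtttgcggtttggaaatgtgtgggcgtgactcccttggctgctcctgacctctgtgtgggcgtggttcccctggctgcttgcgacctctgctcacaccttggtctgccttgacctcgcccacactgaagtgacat
The window has 53.2% G and C. It was searched on both strands for the AP-1 motif TGANTCA, the TCF/LEF motif CTTTGAT, the E-box CACGTG, the GC box GGGCGG and the ETS motif CCGGAAG, and it holds none of these letters. The reads of the row may be those of Fbxo22, whose own window holds 1 GC box and 1 ETS match. Of 32851 such windows 32.7% hold a GC box and 6.91% an ETS match.

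In control mice the Nrg4 row stood at 178, 182, 197, 234 and 200 CPM in adjacent tissue and at 290, 304, 259, 402 and 375 CPM in tumors. Every tumor was above every adjacent library. In Erbb2-deficient mice it stood at 229, 233, 237, 185 and 233 CPM in adjacent tissue and at 335, 322, 321, 310 and 265 CPM in tumors, again without overlap. The means were 326 ± 59.9 CPM (SD, n = 5) in control tumors, 311 ± 26.8 in Erbb2-deficient tumors, 223 ± 21.7 in Erbb2-deficient adjacent tissue and 198 ± 22.1 in control adjacent tissue. Between genotypes the row overlapped in both tissues.

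The Nrg4 row rose in tumors of both genotypes. In controls the rise was 1.64-fold (log2 fold change 0.72 ± 0.16 SE, edgeR adjusted p = 0.00299). The rise in Erbb2-deficient mice was 1.39-fold (0.48 ± 0.16 SE, adjusted p = 0.0282). The control call was lost without a count filter (adjusted p = 0.124), and its adjusted p ran from 2.25e-05 to 0.124 over the alternatives. The Erbb2-deficient call was lost without Erbb2-deficient tumor 1 (0.0543), without Erbb2-deficient adjacent 4 (0.0573) and without a filter (0.301), with a range from 0.00427 to 0.301. The rows most like Nrg4 were Tti2 (r = 0.936), 9530027J09Rik (0.924) and LOC118568046 (0.921). Tti2, which encodes a cofactor that stabilizes large kinases, also rose in tumors, with log2 fold changes of 1.04 in controls and 0.86 in Erbb2-deficient mice (edgeR adjusted p = 0.000663 and 0.00188).

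The Fbxo22 row stood at 4.94, 2.52, 7.65, 18.8 and 2.67 CPM in control adjacent tissue and at 16.1, 10.9, 17.5, 14.3 and 16.9 CPM in control tumors. Control adjacent 4 was above every tumor, and the other 4 adjacent libraries were below every tumor. In Erbb2-deficient mice it stood at 8.73, 10.8, 8.73, 3.78 and 4.63 CPM in adjacent tissue and at 10.6, 11.2, 11.9, 10.4 and 13.7 CPM in tumors, with overlap only through adjacent 2. Between tumor and adjacent tissue neither difference passed: the log2 fold change was 1.04 ± 0.43 SE for controls (edgeR adjusted p = 0.0865), and for Erbb2-deficient mice 0.65 ± 0.42 SE (0.258). Without control adjacent 4 the control mean in adjacent tissue was 4.44 CPM in place of 7.32, and the control difference passed (1.74, adjusted p = 0.00374). Over the 20 libraries the Fbxo22 and Nrg4 rows had r = 0.715. The rows most like Fbxo22 outside the pair were 4833439L19Rik (0.827), Tbcb (0.793) and Stn1 (0.792).

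Ereg encodes epiregulin, a ligand of EGFR and ERBB4, and Gm19610 is an antisense RNA that starts inside Ereg. In GENCODE M21 the first exon of Gm19610, 141 bases of a transcript of 408, lies wholly within the first exon of Ereg on the opposite strand and covers 14 of its coding bases. The first 30 bases of Gm19610 (GRCm38, chr5:91074744-91074773, minus strand) are shown because they face the start of the epiregulin reading frame, with the complement of its start codon in capitals at positions 12 to 14.
Gm19610 start: gggagcgtctcCATccttctttctcggtgc
RefSeq places the start of Gm19610 farther into Ereg. The 250 bases before that start (GRCm38.p6, chr5:91074936-91075185, minus strand) lie within the span of Ereg and in no GENCODE exon, and are shown because this row had the largest differences of the 6.
Gm19610 upstream: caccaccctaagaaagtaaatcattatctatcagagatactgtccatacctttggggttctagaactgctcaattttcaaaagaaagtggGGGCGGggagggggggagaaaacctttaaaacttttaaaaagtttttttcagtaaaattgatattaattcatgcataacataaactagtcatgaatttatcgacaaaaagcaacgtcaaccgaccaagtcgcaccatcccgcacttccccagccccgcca
Capitals mark the only match to the 5 motifs, a GC box that 32.7% of 32851 such windows hold on either strand. The AP-1 motif was in 6.75%, TCF/LEF in 3.21%, the E-box in 6.02% and ETS in 6.91% of windows.

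The Gm19610 row was highest in Erbb2-deficient tumors. It stood at 52.9, 67.9, 99.9, 108 and 22.3 CPM there, from 31 to 145 counts, and at 1.75, 4.15, 11.1, 15.1 and 1.98 CPM in Erbb2-deficient adjacent tissue. The lowest tumor was above the highest adjacent library. Control tumors stood at 7.68, 0, 20.2, 24.8 and 20.3 CPM and control adjacent tissue at 3.95, 8.40, 4.59, 7.17 and 0 CPM. The 0 in control tumor 2 allows up to 2.72 CPM and that in control adjacent 5 up to 2.67 CPM, taking 3 counts as the limit and covering counting error only. The means were 70.2 ± 35.0 CPM (SD, n = 5) in Erbb2-deficient tumors, 14.6 ± 10.4 in control tumors, 6.83 ± 5.99 in Erbb2-deficient adjacent tissue and 4.82 ± 3.26 in control adjacent tissue. The adjacent groups differed by less than their spread.

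Between tumor and adjacent tissue the Gm19610 row rose in Erbb2-deficient mice, with a log2 fold change of 3.37 ± 0.73 SE (10.4-fold, edgeR adjusted p = 0.00198, range over the alternatives 2.82e-05 to 0.0127). In controls it was 1.56 ± 0.77 SE and did not pass (adjusted p = 0.151), but passed without control tumor 2 (1.86, 0.0364, range 0.0364 to 0.367). Reads of the Gm19610 row may be those of Ereg, and which of these genes they came from was not tested. Low counts in the Ereg row therefore do not show low Ereg expression. The Ereg row itself held 0 to 13 counts and was not tested. Its mean was 6.61 CPM in control adjacent tissue, 2.73 in control tumors, 4.71 in Erbb2-deficient adjacent tissue and 2.79 in Erbb2-deficient tumors. The rows most like Gm19610 were LOC108167751 (r = 0.916), Gm51486 (0.904) and Ctnnb1 (0.898). Ctnnb1 encodes beta-catenin, the protein that the Apc product marks for destruction. Against adjacent tissue the Ctnnb1 row rose in Erbb2-deficient tumors (log2 fold change 1.24, edgeR adjusted p = 0.0133). Control tumors had 0.80 and did not pass (0.136). What lies opposite Ctnnb1 was not examined, and a link between the Gm19610 row and beta-catenin was not tested.

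Lrig1 and Slc25a26 end tail to tail and share 144 bases of exon on opposite strands, none of them coding. Slc25a26 encodes a mitochondrial carrier of S-adenosylmethionine. The Slc25a26 row held 23 to 459 counts and the Lrig1 row 24 to 66. Slc25a26 made up 29.5% to 91.1% of the pair's counts, with a median of 85.7%. Per kilobase of annotated exon the Slc25a26 row averaged 38.4 CPM and the Lrig1 row 5.67 CPM.

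The Lrig1 row had the narrowest range among groups. It stood at 36.5, 33.6, 18.4, 29.6 and 25.8 CPM in control adjacent tissue and at 46.1, 35.4, 24.8, 42.8 and 28.8 CPM in control tumors. In Erbb2-deficient mice it stood at 36.1, 29.1, 37.3, 23.5 and 37.1 CPM in adjacent tissue and at 24.2, 30.6, 38.4, 25.3 and 30.3 CPM in tumors. All 4 groups overlapped, and their means of 28.8 to 35.6 CPM lay within 1 SD of their neighbours in order. The tumor difference did not pass in controls, with a log2 fold change of 0.31 ± 0.25 SE (95% interval -0.20 to 0.82, edgeR adjusted p = 0.390). The Erbb2-deficient value was -0.13 ± 0.24 SE (-0.64 to 0.37, adjusted p = 0.720). The rows most like Lrig1 were Srsf10 (r = 0.741), LOC115488798 (0.719) and Hic1 (0.718), the lowest such values among the 6 rows.

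The Slc25a26 row stood at 336, 260, 188, 267 and 235 CPM in control adjacent tissue and at 216, 59.9, 171, 211 and 160 CPM in control tumors, with overlap. In Erbb2-deficient mice it stood at 267, 224, 189, 164 and 240 CPM in adjacent tissue and at 55.2, 163, 16.1, 118 and 149 CPM in tumors, where the highest tumor lay just below the lowest adjacent library. Erbb2-deficient tumor 3, at 16.1 CPM, was the lowest of all libraries and the one in which Slc25a26 made up 29.5% of the pair. Neither difference passed. The control log2 fold change was -0.65 ± 0.42 SE (edgeR adjusted p = 0.279), and the Erbb2-deficient one -1.11 ± 0.42 SE (0.0530). The Erbb2-deficient difference passed without Erbb2-deficient tumor 2 (-1.33, 0.0373), without Erbb2-deficient tumor 5 (-1.28, 0.0386), without control tumor 2 (-1.09, 0.0259) and with DESeq2 (-1.11, 0.0328), with a range of 0.0259 to 0.137. That difference also passed with a replicate block within genotype (-1.41, edgeR adjusted p = 0.0338), an alternative added after seeing the data. The rows most like Slc25a26 were LOC118567755 (r = 0.874), Rhoq (0.847) and Carm1 (0.835).

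Set side by side, 1 of the 6 rows rose and 0 fell in control tumors, where 21.6% of all 7119 rows were called. In Erbb2-deficient tumors 2 rose and 0 fell, where 27.5% were called. Groups did not overlap for 1 of the 6 rows in controls, which was higher in tumors, against 10.6% of all rows (3.96% higher, 6.66% lower). In Erbb2-deficient mice they did not overlap for 3, of which 2 were higher and 1 lower in tumors, against 25.5% (11.9% higher, 13.6% lower). The median log2 fold change of the 6 rows was 0.51 in controls and 0.17 in Erbb2-deficient mice, beside 0.07 and -0.06 over all rows tested.

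**Figure D3:**
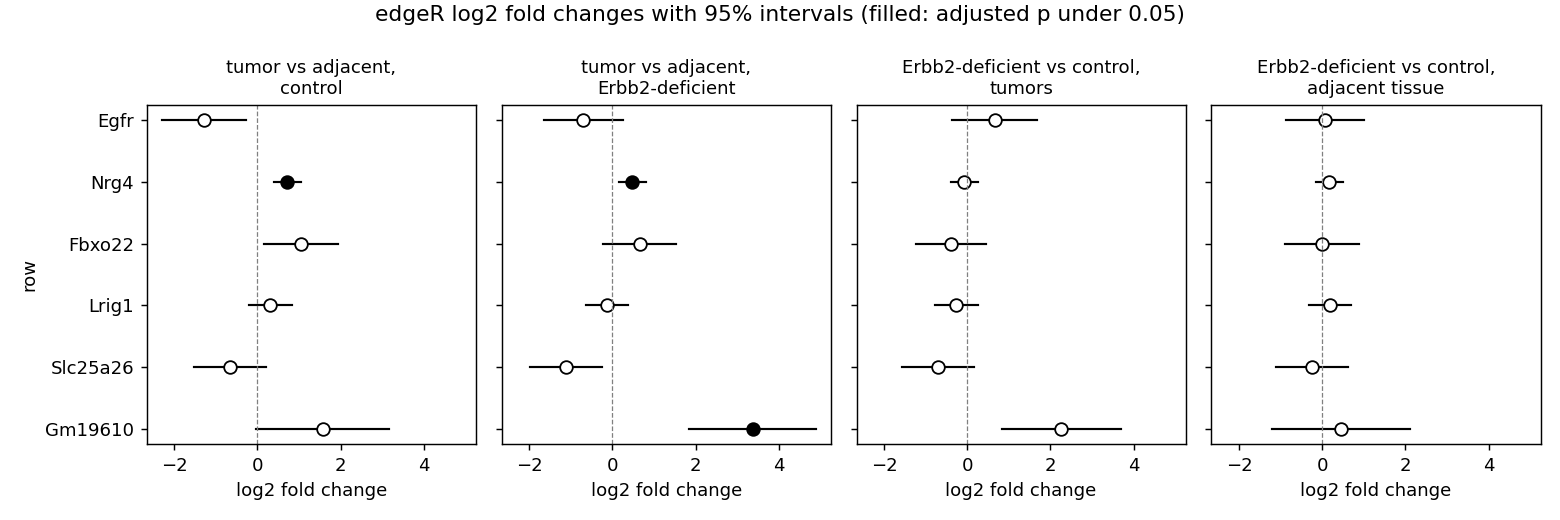
Log2 fold changes (x axis) of the 6 rows (y axis) with 95% intervals for tumor against adjacent tissue in each genotype and for Erbb2-deficient against control mice in each tissue. Filled points passed at an adjusted p under 0.05: the Nrg4 row in both tissue comparisons and the Gm19610 row in Erbb2-deficient mice.

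The comparison of genotypes asked whether other ERBB members differ when the epithelium has lost Erbb2. In tumors edgeR called 0 of the 6 rows and 0% of all rows, and the genotypes overlapped for all 6, while 2.12% of all rows did not overlap (0.927% higher, 1.19% lower). At an unadjusted p under 0.05 there were 817 rows, 1 of the 6 among them, and DESeq2 called 26 rows and 0 of the 6. The row with the unadjusted p was Gm19610, with a log2 fold change of 2.27 ± 0.69 SE (4.81-fold higher in Erbb2-deficient tumors, 95% interval 0.84 to 3.69, edgeR adjusted p = 0.201). By p it ranked 121 of 7119. Of the 5 Erbb2-deficient tumors 4 were above every control tumor, and tumor 5 lay within the control range.

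The Tsix row, which lies opposite the female-specific transcript Xist, was read beside this difference because it is unevenly spread over the genotypes. It was above 50 counts in control replicates 1, 2 and 3 and in Erbb2-deficient replicate 5, in both tissues. Control replicate 1 was the lowest of these, with 156 Tsix counts in the tumor and 99 in adjacent tissue. The others above 50 held 517 to 2038, and the remaining libraries 0 to 2. Among tumors above 50 Tsix counts the Gm19610 row stood at 7.68, 0 and 20.2 CPM in controls and at 22.3 CPM in the Erbb2-deficient tumor. Among tumors below that level the Gm19610 row stood at 24.8 and 20.3 CPM in controls and at 52.9 to 108 CPM in the 4 Erbb2-deficient tumors. With Tsix status as a term of the model the log2 fold change was 1.85 ± 0.70 SE (edgeR adjusted p = 0.560). Without control tumors 2 and 3, or any single library, the Gm19610 difference between tumors did not pass either (adjusted p 0.113 to 0.684 over the alternatives).

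The other rows differed less between tumors of the genotypes. The log2 fold change was 0.66 ± 0.49 SE for Egfr (95% interval -0.37 to 1.68, edgeR adjusted p = 0.654) and -0.71 ± 0.42 for Slc25a26 (-1.58 to 0.16, adjusted p = 0.550). Without control tumor 3 the Egfr value was 1.38 (edgeR adjusted p = 0.174). It was -0.39 ± 0.41 for Fbxo22 (-1.23 to 0.46, adjusted p = 0.776) and -0.26 ± 0.24 for Lrig1 (-0.77 to 0.25, adjusted p = 0.748). The Nrg4 row had the narrowest interval, -0.07 ± 0.16 SE (-0.39 to 0.25, edgeR adjusted p = 0.920). In tumors above 50 Tsix counts it stood at 259 to 304 CPM in controls and 265 CPM in the Erbb2-deficient tumor. In tumors below that level it stood at 401.8 and 374.5 CPM in controls and 310 to 335 CPM in Erbb2-deficient mice. With Tsix status as a term its log2 fold change was -0.16 ± 0.15 SE (edgeR adjusted p = 0.841).

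In adjacent tissue edgeR called 0 of the 6 rows between genotypes and 0% of all rows, and the genotypes overlapped for all 6, while 1.53% of all rows did not overlap (0.73% higher, 0.801% lower). At an unadjusted p under 0.05 there were 418 rows and 0 of the 6, and DESeq2 called 5 rows and 0 of the 6. The log2 fold change was 0.17 ± 0.16 SE for Nrg4 (95% interval -0.15 to 0.50), 0.18 ± 0.24 for Lrig1 (-0.33 to 0.69) and -0.25 ± 0.41 for Slc25a26 (-1.10 to 0.61). It was 0.06 ± 0.45 for Egfr (-0.88 to 1.01) and 0.46 ± 0.80 for Gm19610 (-1.20 to 2.12), and that of Fbxo22 was -0.0012 ± 0.43 (-0.89 to 0.89), or 0.67 without control adjacent 4. The edgeR adjusted p was at least 0.927 for each of the 6.

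The interaction of genotype and tissue, which asks whether the tumor difference depends on the genotype, called 0 of the 6 rows and 0% of all rows in edgeR. At an unadjusted p under 0.05 there were 290 rows and 0 of the 6, and DESeq2 called 0. For Gm19610 the interaction was 1.81 ± 1.06 SE on the log2 scale (95% interval -0.40 to 4.01, edgeR adjusted p = 1), so its call in Erbb2-deficient mice and not in controls does not show that the genotypes differ. For Nrg4 it was -0.24 ± 0.22 SE (-0.70 to 0.22) and for Egfr 0.59 ± 0.67 SE (-0.79 to 1.98), which became 1.32 without control tumor 3 (edgeR adjusted p = 0.850).

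**Figure D4:**
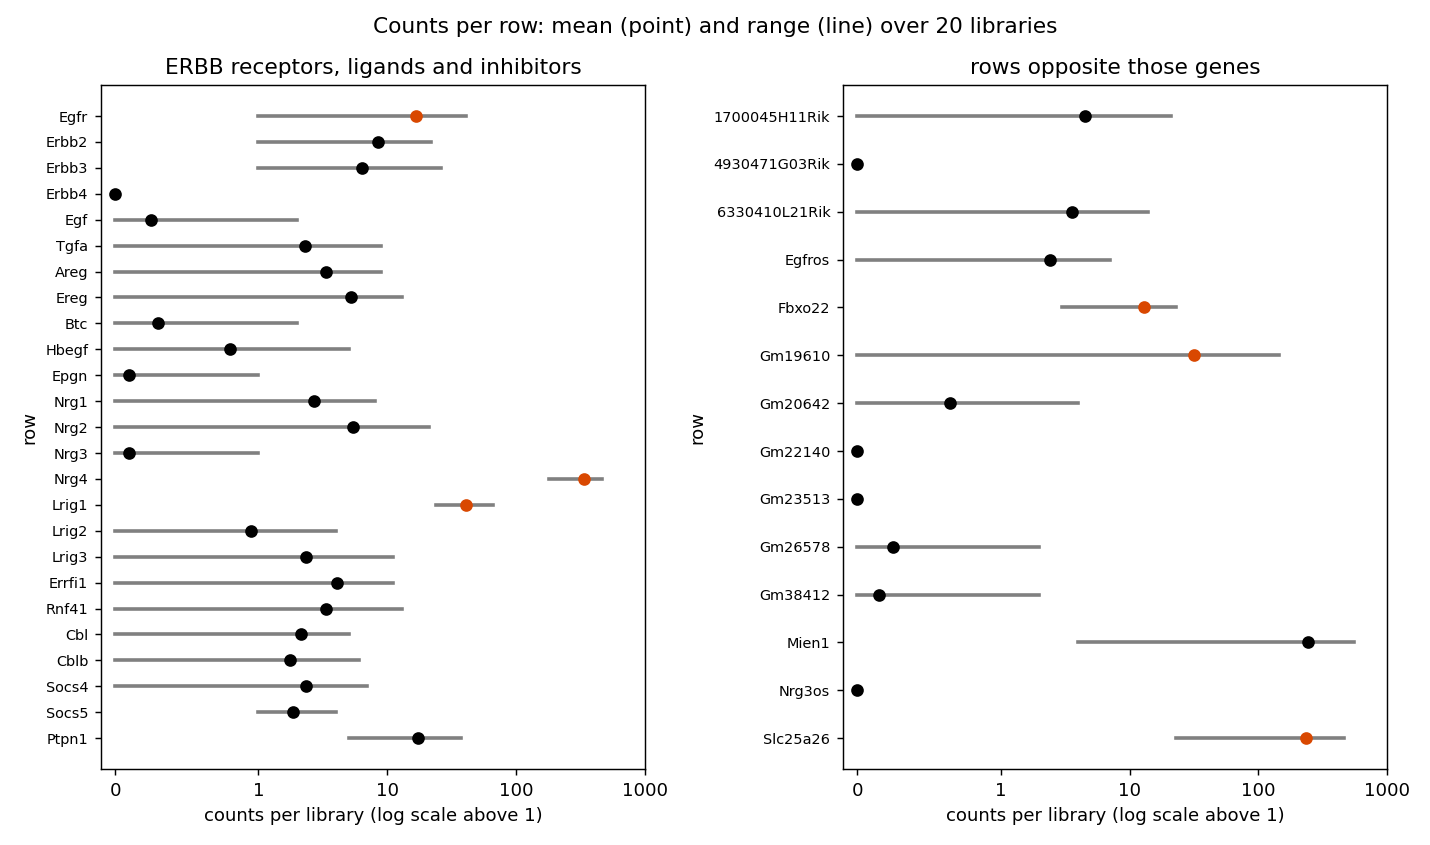
Counts per library on the x axis (log scale above 1) for the rows of ERBB receptors, ligands and inhibitors (left) and for rows opposite those genes (right), with the mean as a point and the range over 20 libraries as a line. The 6 rows of the report are orange. Nrg4, Slc25a26 and Mien1 hold the most counts, while the Erbb4 row is at 0 in all 20 libraries.

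Most other ERBB rows were too thin to test. Of 4 receptor rows 2 were tested (Egfr and Erbb2), and none passed in any comparison. The Erbb3 row, of the kinase-poor receptor that pairs with ERBB2, held 1 to 26 counts and the Erbb4 row 0 in all 20 libraries. Of 11 ligand rows only Nrg4 was tested. Amphiregulin (Areg) held 0 to 9 counts, Tgfa 0 to 9, Nrg1 0 to 8 and Hbegf 0 to 5. The Gapdh row held 0 to 12 counts, so such values do not show low expression. Of 10 inhibitor and turnover rows Lrig1 and the phosphatase Ptpn1 were tested, and none passed. Errfi1, an intracellular EGFR inhibitor, held 0 to 11 counts. Of 4 shedding rows the protease Adam17, which frees several EGFR ligands, was tested and did not pass, with log2 fold changes in tumors of -0.12 ± 0.19 SE (controls) and -0.20 ± 0.19 SE (Erbb2-deficient).

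Among 21 adaptor and signal rows 11 were tested. In tumors 2 fell and 0 rose in each genotype, where 10.9% of all rows fell in controls and 14.5% in Erbb2-deficient mice, so the count is near that share. Braf, a kinase that passes the receptor signal on, was among them in both. In controls the Braf row averaged 32.4 CPM beside the tumor and 17.6 CPM within it (log2 fold change -0.88 ± 0.27 SE, edgeR adjusted p = 0.0246), and in Erbb2-deficient mice 36.1 and 15.0 CPM (-1.26 ± 0.27 SE, adjusted p = 0.00182). The median of the 11 was -0.27 in controls and -0.17 in Erbb2-deficient mice, beside the 0.07 and -0.06 of all rows. None of the 11 passed between genotypes. Their partners on the opposite strand were not examined here.

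Rows opposite the receptors, ligands and inhibitors numbered 14, and 4 were tested: Fbxo22, Gm19610, Slc25a26 and Mien1. Mien1 shares 9 exon bases with Erbb2, and its row held 4 to 548 counts. Of these 4 rows, 0 passed in control tumors and 1, Gm19610, rose in Erbb2-deficient tumors, beside 21.6% and 27.5% of all rows called.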

How the data were processed

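The authors deposited 1 file per library with raw read counts per gene symbol. The tools named, per the submitters' processing notes, were HTSeq version 2.0.2, DESeq2, Trimmomatic and HISAT2 version 2.2.1, with build mm39. Their roles and settings were not given in the sources used here. The 5 summary rows (no feature, 78.6% to 85.1% of reads in a file, and others) were left out. Groups came from the sample titles.

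Rows were filtered with filterByExpr (minimum count 10), scaled with TMM and tested with edgeR version 4.0.16 (R version 4.3.3). Quasi-likelihood F tests used a means model of the 4 groups, all 20 libraries, and Benjamini-Hochberg adjustment over 7119 rows at 0.05. The SE is the log2 fold change divided by the square root of F. Log2 CPM uses a prior count of 2. DESeq2 version 1.42.0 was an alternative. The code was tested on simulated data. P-values set the group differences against the spread between libraries, treated as independent, although libraries of equal number may share a mouse.

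GENCODE M21 (GRCm38), another build than the counts, gave overlaps and matched 34639 of 46329 rows. Promoter sequences are from RefSeq (GRCm38.p6), found for 5 of the 6 members (not Slc25a26). The members, gene lists and tests were chosen with earlier results of these data known. All 6 members were named, with other genes by pathway list and the 3 rows of highest r per member. Results for some rows that this rule or the lists name are not reported here.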

Additional observations from a re-analysis of the deposited data

Results flagged for a closer look

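Within groups of 5 libraries, each of the 6 rows was checked for a highest or lowest library far from the others. Of 24 such groups 1 had one: the Nrg4 row stood at 185 CPM in Erbb2-deficient adjacent 4, against 229 to 237 CPM in the other 4 libraries of that group. Chance alone marks about 1 group in 20.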

How the results depend on the processing

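For single rows, 816 of 844 alternative values kept the direction and the call, 4 lost the call, 14 gained one and 10 changed sign. Most of the 844 belong to results that had not passed, which kept the call by again not passing. Of the results that had passed, the Nrg4 row kept its call in 28 of 29 alternatives in control tumors. In Erbb2-deficient tumors the Nrg4 row kept it in 26 of 29 and the Gm19610 row in 29 of 29. The number of the 6 rows called in control tumors was 1, and 2 with DESeq2, with the replicate block, with that block within each genotype and without control tumors 2 and 3, 0 without a filter, and 1 to 3 when single libraries were left out. In Erbb2-deficient tumors it was 2, and 3 with DESeq2, with the block within each genotype and without control tumors 2 and 3, 1 without a filter, and 1 to 3 when single libraries were left out. The alternatives with the block within genotype and with Tsix status as a term were added after seeing the data. Equal replicate numbers did not deviate together in every pair (r -0.115 to 0.37 between tissues in controls, -0.016 to 0.228 in Erbb2-deficient mice, 3 of 5 best with their own number in each), so the numbers were not taken as pairs, although Tsix status was equal in both tissues of every number and the Egfr row was lower in the tumor of every number. With the replicate block the Egfr row passed in control tumors (-1.35, edgeR adjusted p = 0.0481), and within genotype Egfr (-1.49, 0.0169) and Slc25a26 in Erbb2-deficient tumors (-1.41, 0.0338) passed.

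All 10 changes of sign were between genotypes, where no row passed. In adjacent tissue Fbxo22 was 0.10 with the replicate block, 0.14 and 0.10 without Erbb2-deficient adjacent 4 and 5, and 0.67 without control adjacent 4. Gm19610 was -0.094 without Erbb2-deficient adjacent 4 and -0.12 with Tsix status as a term. Egfr was -0.18 without Erbb2-deficient adjacent 5, and -0.05 and -0.12 without control adjacent 2 and 4. Leaving out single libraries gave -0.24 to 0.67 for Fbxo22, -0.094 to 0.72 for Gm19610 and -0.18 to 0.24 for Egfr. In tumors Nrg4 was 0.00072 without control tumor 4. The cause of these changes was not tested. Without a filter, where both Nrg4 calls in tumors were lost, 27672 rows were tested in place of 7119. The SE of the Nrg4 tumor difference was then 0.27 in place of 0.16 in each genotype. Egfr, Fbxo22 and Gm19610 had group means of 4.82 to 17.3 CPM outside Gm19610 in Erbb2-deficient tumors. The part of depth in their SEs was not tested. In controls the tumor difference had an SE of 0.425 for Fbxo22 and 0.415 for Slc25a26, with mean counts of 13.05 and 232.8.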
